A study of Gallus gallus with 5 samples.

Results

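Chromosomes 23 to 28 are among the shortest numbered microchromosomes of the chicken, and their peaks were taken from 5 deposited chromatin immunoprecipitation sequencing (ChIP-seq) peak lists by chromosome name alone. They held 30463 of the 425322 peaks in all lists, or 7.16%, on 28.9 Mb, which is 2.80% of the 1032.8 Mb spanned by peaks on all chromosomes. The spanned length of a chromosome is the highest peak end in any list. By this length, chromosome 25 spanned 2.03 Mb and the other 5 spanned between 4.51 Mb (chromosome 28) and 6.40 Mb (chromosome 24). The name "smallest" is only partly borne out, because chromosome 22 spanned 3.94 Mb, less than 5 of the 6, and chromosome 16 spanned 0.432 Mb.

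The cells were immature (polychromatic) chicken erythrocytes in G0, nucleated red cells that no longer divide. Per the labels' protocols, chromatin was fixed in nuclei with 0.5% formaldehyde and cut by shearing into pieces of 200 bp. H3R2me2s was mapped in 2 libraries, H4R3me2a in 2 libraries, and input chromatin, which had no antibody step, in 1. The replicate 1 libraries were read on SOLiD and called against a control, whereas the Illumina platform gave replicate 2 and the input, both called without one, so platform, caller and control changed together with the replicate number. The protocols also describe size selection, to between 100 and 250 bp, for the SOLiD libraries alone. Label fields conflict on the breed, and none is used. No genotype, treatment or age separates the groups. The labels do not say whether the libraries of a mark came from separate animals, so the spread between them may be technical.

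In H3R2me2s, arginine 2 of histone H3 carries a methyl group on each of its side-chain nitrogens. In mammals this mark is laid down by the arginine methyltransferases PRMT5 and PRMT7 and is known from active promoters. In H4R3me2a, arginine 3 of histone H4 carries both methyl groups on the same nitrogen. This mark is laid down by PRMT1, and in chicken erythroid cells PRMT1 is needed for histone acetylation over active chromatin. Microchromosomes are known to be gene-dense, rich in GC and CpG islands, and early replicating. The files hold no gene names, and no genome of their build was used, so positions are given as the files hold them, without genes or sequences.

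Depth after removal of repeated positions was 14.2 M and 10.3 M tags for replicate 1 of H3R2me2s and H4R3me2a, 35.1 M and 31.2 M for replicate 2, and 27.1 M for the input. The number in the alignment file name differed between header and label for the 3 Illumina lists (H3R2me2s replicate 2 had 11 and 10, H4R3me2a replicate 2 had 12 and 11, the input had 10 and 12). Density, cover, width and fold are therefore given per list, and those of replicate 1 do not depend on which labels those 3 lists carry. Values that combine lists do depend on the labels kept here. Among them are overlaps with replicate 2 or the input, rich and poor bins, sites of all 4 ChIP lists, and means.

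Both marks were dense on chromosomes 23 to 28. H3R2me2s had 8766 peaks in replicate 1 and 7207 in replicate 2, or 303 and 249 peaks per Mb. H4R3me2a had 7166 and 6814 peaks, or 248 and 236 per Mb. The input had 510 peaks, or 17.6 per Mb. The H3R2me2s peaks covered 40.1% of the bases in replicate 1 and 20.02% in replicate 2, and the H4R3me2a peaks covered 36.4 and 13.6%. Input peaks covered 0.365%. Each replicate thus had more H3R2me2s than H4R3me2a cover, and replicate 1 covered more than replicate 2 in both marks. H4R3me2a also had fewer tags than H3R2me2s in each replicate, and the part of depth in its lower cover was not tested.

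The comparison with longer chromosomes asks how far the smallest ones stand apart. On chromosomes 1 to 5, the long macrochromosomes, H3R2me2s had 68.0 and 99.9 peaks per Mb and H4R3me2a 49.1 and 93.4. The ratio of chromosomes 23 to 28 to chromosomes 1 to 5 was 4.46 and 2.49 for H3R2me2s (mean 3.48 ± 1.39, SD, n = 2) and 5.04 and 2.52 for H4R3me2a (mean 3.78 ± 1.78, SD, n = 2). The input ratio was 1.82, lower than that of each ChIP list. The mean of the 4 ChIP ratios exceeded it by 1.81 (exact 2-sided permutation p = 0.4, where 4 lists against 1 allow no less than 0.2). Across the 4 ChIP lists the mean log2 ratio was 1.79, higher in 4 of 4, with an exact 2-sided sign-flip p of 0.125, the smallest that 4 lists allow. That test takes the lists as independent, which they are not, since lists of a replicate share a platform and those of replicate 1 a control. The marks differed by 0.307 in this ratio, H4R3me2a being higher in both replicates, with an exact 2-sided permutation p of 0.667 unpaired and 0.5 within replicate number. With 2 libraries against 2, that test cannot go below 0.3333, or below 0.5 in pairs. Among the upper 50% of each list by deposited fold enrichment, the H3R2me2s ratio was 6.55 in replicate 1 but 0.835 in replicate 2, and the H4R3me2a ratio was 7.40 and 1.06, so in replicate 2 the higher density lay among the peaks of lower fold.

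Against the other microchromosomes the step was smaller. On chromosomes 11 to 22 (without 16) H3R2me2s had 201 and 183 peaks per Mb and H4R3me2a 157 and 177. The ratio of chromosomes 23 to 28 to these was 1.51 and 1.36 for H3R2me2s and 1.58 and 1.33 for H4R3me2a. The input ratio was 1.67, above all 4 ChIP ratios, a difference of -0.225 from their mean (exact 2-sided permutation p = 0.2, the smallest that 4 lists against 1 allow). In bases covered the order was mixed, because the ChIP ratios were 1.82, 1.42, 1.87 and 1.39 (H3R2me2s replicates 1 and 2, then H4R3me2a replicates 1 and 2) and the input ratio 1.56.

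**Figure D1:**
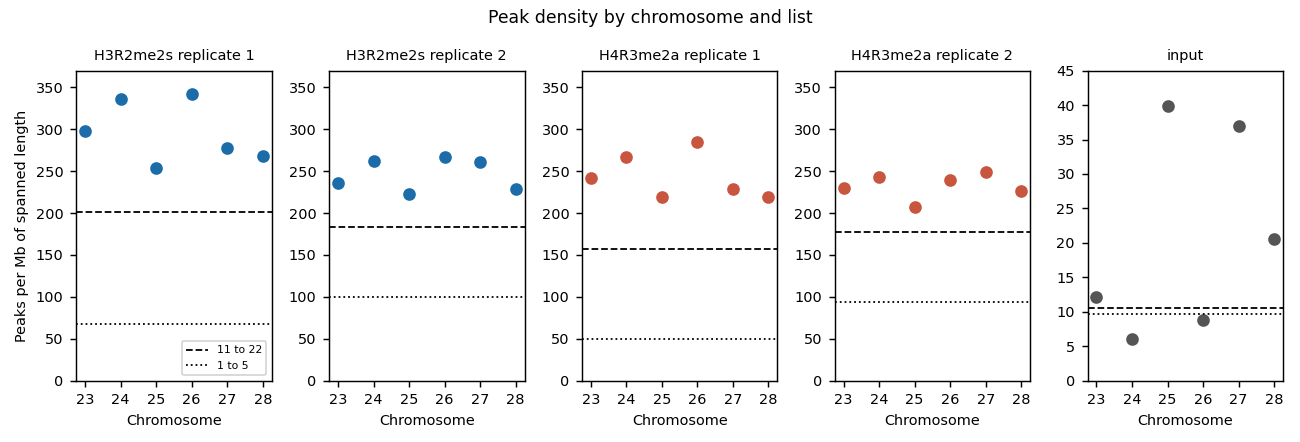
Peaks per Mb of spanned length (y axis) on each of chromosomes 23 to 28 (x axis), with 1 panel per peak list; the dashed line is the value on chromosomes 11 to 22 and the dotted line that on chromosomes 1 to 5. All 6 chromosomes lie above both lines in the 4 ChIP lists, while in the input, drawn on its own scale, chromosomes 24 and 26 lie below both.

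The deposited fold enrichment, each peak's ratio to background as the authors' caller gave it, went in opposite directions by replicate. Replicate 1 was called against a control and replicate 2 against local background of the same library, so the folds differ in kind. The median fold of H3R2me2s peaks was 11.3 on chromosomes 23 to 28 against 9.34 on chromosomes 1 to 5 in replicate 1, and 2.14 against 3.10 in replicate 2. H4R3me2a showed the same split, with 16.96 against 13 in replicate 1 and 2.35 against 3.17 in replicate 2. The ratios were 1.21 and 1.30 in replicate 1 and 0.689 and 0.744 in replicate 2, and the input, also called without a control, had 0.859. The deposited height of the peaks is also of 2 kinds. In replicate 1 it is the tag count of the whole peak, with a median 1.66 (H3R2me2s) and 1.64 (H4R3me2a) times that on chromosomes 1 to 5. In replicate 2 it is the pileup at the summit, with a median 1.96 and 1.77 times that on chromosomes 1 to 5. The tag count takes in peak width. Per kb of peak, the replicate 1 medians were 68.7 against 57.6 tags for H3R2me2s and 64.3 against 52.3 for H4R3me2a. The part of caller and control in the split of the folds was not tested.

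Peaks were also wider here than on chromosomes 1 to 5, most so in replicate 1. Median width was 894 bp for H3R2me2s and 979 bp for H4R3me2a in replicate 1, against 668 and 752 bp on chromosomes 1 to 5. In replicate 2 it was 670 and 459 bp, against 609 and 429 bp. Chromosomes 11 to 22 lay closer, with 755 and 865 bp in replicate 1 and 633 and 435 bp in replicate 2. Chromosome 22 alone had 862 and 993 bp in replicate 1, for H4R3me2a above the median given here. Peaks of 3 kb or more numbered 641 for H3R2me2s and 660 for H4R3me2a in replicate 1, which is 7.31 and 9.21% of the peaks, beside 2.96 and 4.23% on all chromosomes. In replicate 2 they numbered 14 and 4, or 0.194 and 0.0587%, beside 0.135 and 0.0273% on all chromosomes. On chromosomes 11 to 22 the replicate 1 shares were 4.24 and 6.02%, and on chromosome 22 alone 4.89 and 9.78%. The widest peak of H4R3me2a in replicate 1 ran over 21883 bp at chromosome 26:371644-393526. H3R2me2s covered 95.1% of it in replicate 1 and 16.4% in replicate 2, and H4R3me2a replicate 2 covered 4.04%. It held no input peak. Its cover was high in both SOLiD lists, but a single peak of this width was in the H4R3me2a replicate 1 list alone.

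In percent of bases covered, the range over the 6 chromosomes was wider in replicate 1 than in replicate 2, mostly through chromosome 26. With the long stretches without peaks described below counted, chromosome 26 had the highest replicate 1 cover, 53.5% for H3R2me2s and 48.0% for H4R3me2a. The other 5 lay between 35.8 and 38.3% for H3R2me2s and between 32.2 and 36.4% for H4R3me2a. In replicate 2 chromosome 26 was not apart: H3R2me2s cover ran from 18.5% (chromosome 25) to 21.5% (chromosome 27), with 20.6% on chromosome 26. H4R3me2a in replicate 2 ran from 12.6% (chromosome 24) to 15.2% (chromosome 27), with 13.2% on chromosome 26. The ratio of replicate 1 to replicate 2 cover was 2.59 for H3R2me2s and 3.63 for H4R3me2a on chromosome 26, the highest of the 6, and 1.66 and 2.17 on chromosome 27, the lowest.

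The input was spread unevenly over them. Chromosome 27 had 179 input peaks and chromosome 25 had 81, or 37.0 and 39.9 per Mb. Chromosome 28 had 93 (20.6 per Mb) and chromosome 23 had 73 (12.1 per Mb). Chromosomes 24 and 26 had 39 and 45 (6.09 and 8.82 per Mb), below the 9.69 per Mb of chromosomes 1 to 5. With the long stretches without peaks described below counted, the most peaks per Mb of both marks in replicate 1 were on chromosomes 24 and 26, with the sparsest input. In replicate 2 the same held for H3R2me2s, with 261.9 and 266.7 per Mb beside 261.5 on chromosome 27. H4R3me2a had the most on chromosome 27 in replicate 2, with 248.9 beside 242.7 and 239.9 on chromosomes 24 and 26. In bases covered, chromosome 27 was highest for both marks in replicate 2. Without the long stretches, chromosome 25, with the most input peaks per Mb, ranked first in H4R3me2a in replicate 1 and in both marks in replicate 2. This held in peaks per Mb and in bases covered.

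Along their length, chromosomes 23 to 28 were split into 116 bins of 250 kb, leaving out a last bin with less than 40% of that length. A bin was called rich when its cover lay above the upper quartile of the 4136 bins of the genome in all 4 ChIP lists. By this rule 106 of 116 bins were rich, 91.4%, beside 20.4% of all bins in the genome, 55.4% of the bins on chromosomes 11 to 22 and 9.74% of those on chromosomes 1 to 5. All 21 bins of chromosome 26 were rich, as were 22 of 24 on chromosome 23, 23 of 26 on chromosome 24, 6 of 8 on chromosome 25, 18 of 19 on chromosome 27 and 16 of 18 on chromosome 28. With the upper 50% of each list by fold, 28 of 116 bins were rich, beside 8.92% of all bins, and with the upper 10% of bins in place of the quartile 55 of 116, beside 6.24%.

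A bin was called poor when its cover lay below the lower quartile in all 4 ChIP lists. Only 3 bins were poor, 2.59%, beside 16.4% of all bins. They were chromosome 23:2000001-2250000, chromosome 25:250001-500000 and chromosome 28:3250001-3500000, and each had 0 peaks in all 5 lists. The remaining 7 bins were neither rich nor poor, and 3 of these lay next to a poor bin.

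Over the 113 bins with peaks, the marks varied most in replicate 1. Replicate 1 gave H3R2me2s cover of 10.3 to 79.3% and replicate 2 of 1.99 to 28.97%, with medians over all 116 bins of 39.9 and 20.3%. H4R3me2a cover ran from 4.69 to 77.2% and from 1.04 to 22.7%, with medians of 36.2 and 13.9%. The coefficient of variation was 0.409 and 0.456 in replicate 1 and 0.191 and 0.241 in replicate 2. The marks rose and fell together within a replicate, with a Spearman rho over these bins of 0.967 in replicate 1 and 0.882 in replicate 2. The replicates of a mark were ranked less alike, with rho of 0.502 for H3R2me2s and 0.367 for H4R3me2a. These are descriptions over 113 bins that share libraries and, within replicate 1, a control. Input cover followed replicate 2 (rho 0.396 with H3R2me2s and 0.523 with H4R3me2a) more closely than replicate 1 (-0.0351 and 0.0897), and its part in the bin profile was not tested.

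**Figure D2:**
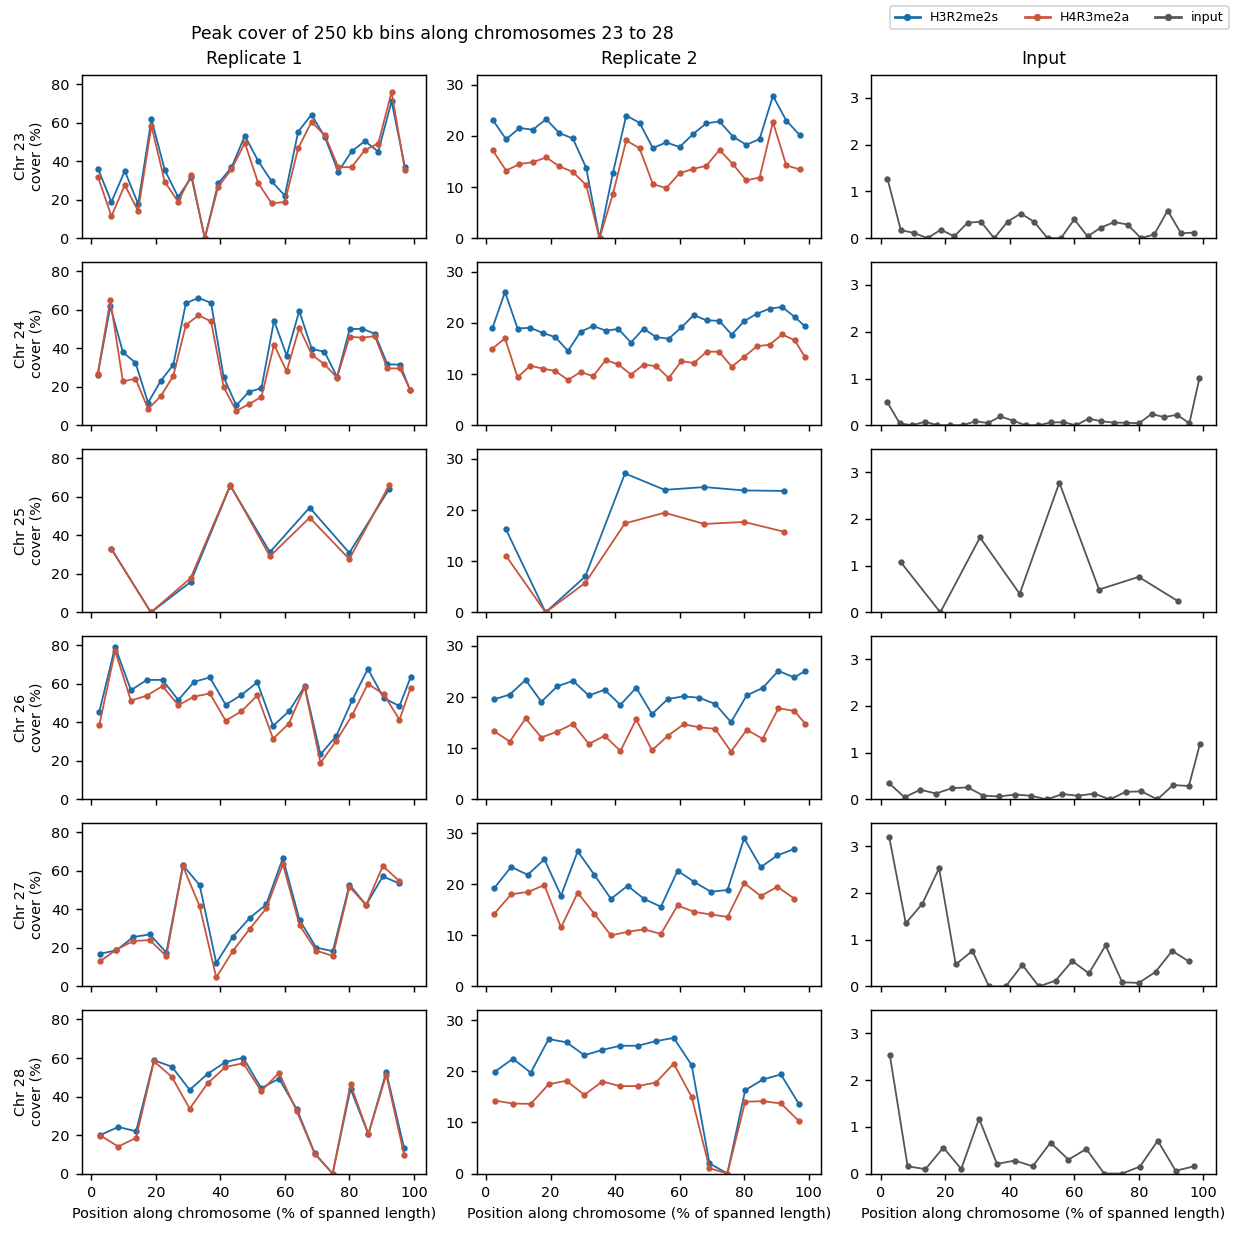
Percent of bases covered by peaks (y axis) in 250 kb bins along chromosomes 23 to 28 (rows; x axis, position in percent of the spanned length), for replicate 1, replicate 2 and the input (columns, each with its own y scale). The marks follow each other within a replicate, the cover falls to 0 in 1 bin on each of chromosomes 23, 25 and 28, and input cover is highest in the first bin of chromosome 27, at 3.204%.

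**Figure D3:**
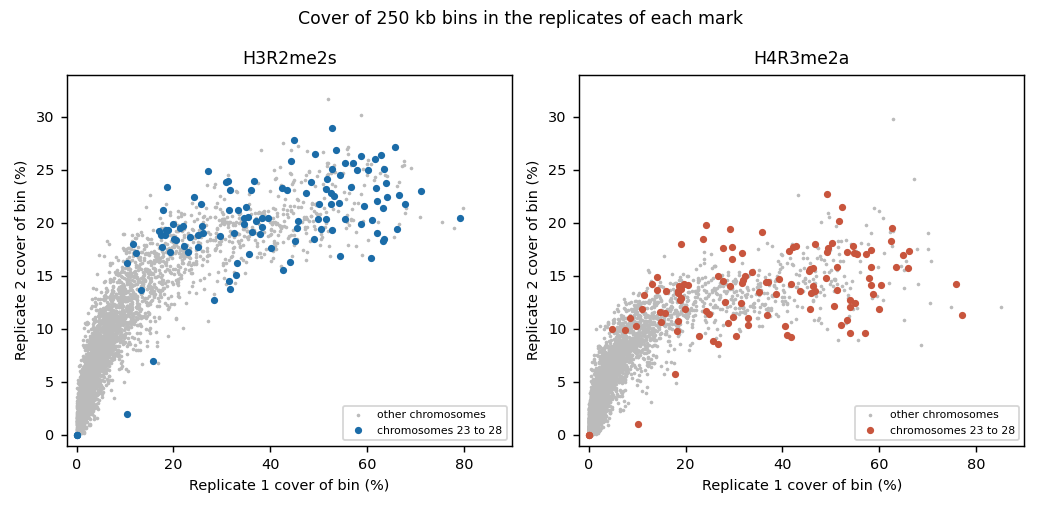
Cover of each 250 kb bin in replicate 1 (x axis, percent) and replicate 2 (y axis, percent) for each mark, with bins of chromosomes 23 to 28 in colour and all others in grey. Bins of the 6 chromosomes reach 79.3 and 77.2% in replicate 1 but not beyond 28.97 and 22.7% in replicate 2, and 3 of them lie at 0.

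The richest bin of each chromosome was taken by mean rank over the 4 ChIP lists. On chromosome 23 it was 23:1000001-1250000, with H3R2me2s cover of 61.8 and 23.3% and H4R3me2a cover of 58.3 and 15.8% in replicates 1 and 2. On chromosome 24 it was 24:250001-500000, where H3R2me2s covered 61.7 and 26.05% and H4R3me2a 64.98 and 17.01%. On chromosome 25 it was 25:750001-1000000, with 65.7 and 27.2% and 66.1 and 17.4%, directly after a bin of low cover. The other three chromosomes had their richest bins at 26:4500001-4750000, near the last end, at 27:1250001-1500000 and at 28:750001-1000000. H3R2me2s covered 52.7 and 25.1% of the one on chromosome 26, 62.9 and 26.4% of that on chromosome 27 and 58.8 and 26.3% of that on chromosome 28. H4R3me2a covered 54.7 and 17.8%, 62.4 and 18.3%, and 58.3 and 17.5% of them. In these 6 bins input cover was between 0.0404 and 0.763%.

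The bin with the highest replicate 1 cover was another one, 26:250001-500000, near the first end. H3R2me2s covered 79.3% of it and H4R3me2a 77.2% in replicate 1, but 20.5 and 11.3% in replicate 2. In replicate 2 this H3R2me2s value is near the median of the 116 bins and the H4R3me2a value is below it.

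The lowest bins that still held peaks were of 2 kinds. On chromosomes 23, 25 and 28 they held part of the long stretch without peaks described below, and their cover counts its bases. The lowest was 28:3000001-3250000, with H3R2me2s cover of 10.4 and 1.99% and H4R3me2a cover of 10.18 and 1.04%. In 25:500001-750000 the cover by H3R2me2s was 15.8 and 7.02% and that by H4R3me2a 17.8 and 5.76%, with 10 input peaks. In 23:2250001-2500000 it was 28.4 and 12.7%, and 26.7 and 8.58%.

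On chromosomes 24 and 27 the lowest bins lay in the interior and were covered less in replicate 1 than in replicate 2. Bin 24:2750001-3000000 had H3R2me2s cover of 10.3 and 16.2% and H4R3me2a cover of 7.44 and 9.92%. Bin 27:1750001-2000000 had 12.2 and 17.1% for H3R2me2s and 4.69 and 9.97% for H4R3me2a, the lowest H4R3me2a cover of replicate 1 among the bins with peaks. The lowest bin of chromosome 26, 26:3750001-4000000, still had 32.9 and 15.1%, and 30.5 and 9.36%, and was rich by the rule above.

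Stretches without a peak were few but long. On chromosome 23 no peak of any list lay in 23:1889488-2389718, a stretch of 500.2 kb from 31.3 to 39.6% of the spanned length. On chromosome 25 the same held for 25:186737-686489, 499.8 kb, and on chromosome 28 for 28:3030744-3530772, 500.03 kb. The 3 stretches thus differed in length by less than 1 kb. Across the genome 22 stretches of 200 kb or more held no ChIP peak, of which 7 were within 20 kb of 500 kb and another 11 within 20 kb of 1500 kb, and 0 input peaks lay in any of them. Absence from the input carries little here, since the input went without a peak for 710.7 kb on chromosome 23 and 849.8 kb on chromosome 24. Gaps in the assembly were not masked, and whether these stretches hold sequence was not tested.

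Both sides of these stretches were densely marked. In the 50 kb before and after them, H3R2me2s cover was 39.2 to 78.4% in replicate 1 and 21.1 to 33.1% in replicate 2. H4R3me2a cover ran from 39.1 to 86.5% and from 15.7 to 26.5%. The fall to 0 was thus from levels near or above the medians of the bins in both marks.

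Outside these 3 stretches, peak-free intervals were short. The longest without a ChIP peak was 28.5 kb on chromosome 24 (24:1633096-1661549), 30.8 kb on chromosome 26 (26:3782255-3813086) and 24.3 kb on chromosome 27 (27:2281775-2306105). The next longest on chromosome 28 was 44.1 kb, at 28:4333498-4377634. In all, 13 stretches of 20 kb or more took 6.17% of the spanned length, and on chromosome 25 a single one took 24.6%. Some ChIP peak covered 48.5% of the bases, from 44.2% on chromosome 25 to 60.3% on chromosome 26.

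Without the 3 long stretches, the remaining 27.4 Mb held 319.6 and 263 peaks per Mb of H3R2me2s and 261 and 248 of H4R3me2a. Chromosome 25 changed most: its H3R2me2s density of 253 peaks per Mb became 336 in replicate 1, and 222 became 295 in replicate 2, which put it second to chromosome 26 (342) in the first and above all the other 5 in the second. Its input density went from 39.9 to 52.9 peaks per Mb.

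The ends, taken as the first and last 250 kb, showed no shared pattern. Pooled over the 6 chromosomes, the cover of the ends over that of the interior was 0.822 in replicate 1 and 1.02 in replicate 2 for H3R2me2s, and 0.839 and 1.07 for H4R3me2a. Replicate 1 was lower at the ends and replicate 2 slightly higher, so the direction of this ratio depended on the replicate. The 3 long stretches without peaks lie wholly or mostly in the interior and were not left out, which lowers interior cover. Without them, the whole remaining length had replicate 2 cover of 21.1% for H3R2me2s and 14.4% for H4R3me2a. The ends, counted as above, had 20.4 and 14.5%, so a higher replicate 2 cover at the ends rests on counting the stretches for H3R2me2s. The end ratio itself was not computed without them. The input ratio was 3.36. The part of the input's rise at the ends in the replicate 2 ratio was not tested.

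Single chromosomes went both ways. Chromosome 28 was lowest at its ends, where H3R2me2s had ratios of 0.430 and 0.867 and H4R3me2a 0.423 and 0.890. Its last 250 kb had H3R2me2s cover of 13.9 and 14.9% and H4R3me2a cover of 11.4 and 11.1%. With its long stretch without peaks counted, chromosome 25 had more cover at its ends than inside: H3R2me2s had ratios of 1.47 and 1.16 and H4R3me2a 1.56 and 1.11. Its last 250 kb was covered to 65.4 and 25.2%, and 67.01 and 17.8%. The stretch runs from within the first 250 kb into the interior. Without it, the whole of chromosome 25 was covered to 49.5 and 24.6% by H3R2me2s and to 48.3 and 17.7% by H4R3me2a. In replicate 2 its last 250 kb was thus close to the whole, and its first 250 kb, with part of the stretch, had 16.2 and 11.1%. The ratio without the stretch was not computed. With the long stretches counted, chromosomes 28 and 25 were the only 2 whose ratio lay on the same side of 1 in all 4 ChIP lists.

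On the others, replicate 1 gave ratios from 0.656 to 0.921 and replicate 2 from 1.01 to 1.21. On chromosome 27 the first end was covered to 17 and 19.3% by H3R2me2s and the last to 39.2 and 24.4%. Chromosome 23 was the reverse, with 36.0 and 23.1% at the first end and 28.3 and 18.9% at the last. Input cover was above the interior at the ends of 5 chromosomes, with ratios from 2.83 (chromosome 27) to 7.56 (chromosome 24), and below it on chromosome 25, at 0.786. At the first end input cover was 3.204% on chromosome 27 and 2.54% on chromosome 28. The bin of highest input cover was the first bin on chromosomes 23 (1.27%), 27 and 28, the last bin on chromosomes 24 (1.01%) and 26 (1.19%), and an interior bin on chromosome 25, 25:1000001-1250000 (2.77%).

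**Figure D4:**
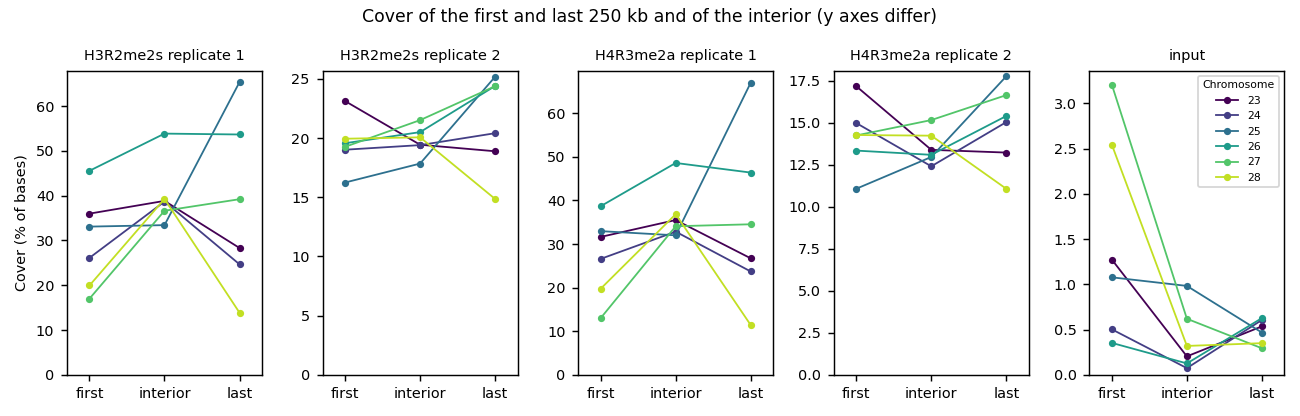
Percent of bases covered by peaks (y axis, different in each panel) in the first 250 kb, the interior and the last 250 kb of each chromosome (lines), with 1 panel per list. Chromosome 28 falls from the interior to its last end in all 4 ChIP lists. Chromosome 25 rises there, with its long stretch without peaks counted in the interior. The input is highest at the first ends of chromosomes 27 and 28.

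Long blocks were chains of at least 5 peaks of a list with gaps of at most 1 kb. They held 40.9% of H3R2me2s peaks and 33.3% of H4R3me2a peaks in replicate 1, in 463 and 326 blocks. In replicate 2 they held 0.361 and 0.778%, in 5 and 10 blocks. On chromosomes 11 to 22 the shares were 30.0 and 25.2% in replicate 1 and 0.319 and 0.599% in replicate 2, and on chromosomes 1 to 5 they were 9.51 and 7.40%, and 0.0800 and 0.306%. Blocks of this kind were therefore a feature of the replicate 1 lists, and within them more frequent on the shorter chromosomes. Chromosome 26 had the highest share, 55.2% for H3R2me2s and 42.4% for H4R3me2a, and chromosome 27 had the lowest, 28.4 and 27.1%.

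The longest block of H3R2me2s ran over 75.4 kb at 23:4157167-4232593 with 38 peaks in replicate 1. H4R3me2a also had 38 peaks there in replicate 1 and covered 82.9%, beside 87.1% for H3R2me2s. In replicate 2 the same interval held 21 peaks of each mark, which covered 18.5 and 13.03%, near the medians of the bins. It held no input peak.

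The longest block of H4R3me2a, 73.4 kb at 23:5658293-5731700, was covered to 88.4% by H4R3me2a and 81.3% by H3R2me2s in replicate 1, and to 10.6 and 18.8% in replicate 2. On chromosome 26 the longest H3R2me2s block was 73.3 kb at 26:2606686-2680001, where replicate 1 covered 85.3 and 78.5% but replicate 2 only 13.8 and 6.31% (H3R2me2s, then H4R3me2a). On chromosome 24 both marks had their longest replicate 1 block at nearly one place, 24:330658-374277 for H3R2me2s (43.6 kb) and 24:330424-374386 for H4R3me2a (44.0 kb). The longest H3R2me2s blocks of the others were 60.7 kb at 27:2793406-2854077, 41.1 kb at 28:2056326-2097470 and 34.3 kb at 25:1969153-2003423, the last of them close to the end of its chromosome. For H4R3me2a they were 51.4 kb at 26:1525404-1576790, 45.6 kb at 28:2051864-2097431, 44.0 kb at 25:794216-838256 and 39.7 kb at 27:4437781-4477455.

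Replicate 2 blocks were much shorter. The longest were 7.19 kb at 27:4682440-4689631 for H3R2me2s and 5.90 kb at 28:2207529-2213424 for H4R3me2a. The second of these was covered by both marks in both replicates, to 84.2 and 66.9% by H3R2me2s and 91.1 and 60.3% by H4R3me2a, without an input peak. With gaps of up to 5 kb, replicate 2 also chained: 91.25 and 87.05% of replicate 1 peaks (H3R2me2s, then H4R3me2a) and 77.7 and 63.9% of replicate 2 peaks lay in blocks. Over all chromosomes the shares were 61.3 and 55.5%, and 45.7 and 39.3%. On chromosomes 11 to 22 they were 79.8 and 73.6%, and 63.8 and 53.5%. The longest such block was 719.6 kb, at 24:1823731-2543375, with 345 H3R2me2s and 296 H4R3me2a peaks in replicate 1 and 188 and 161 in replicate 2. The longest of replicate 2 was 102.4 kb for H3R2me2s, at 27:619078-721458, where 19 input peaks also lay.

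**Figure D5:**
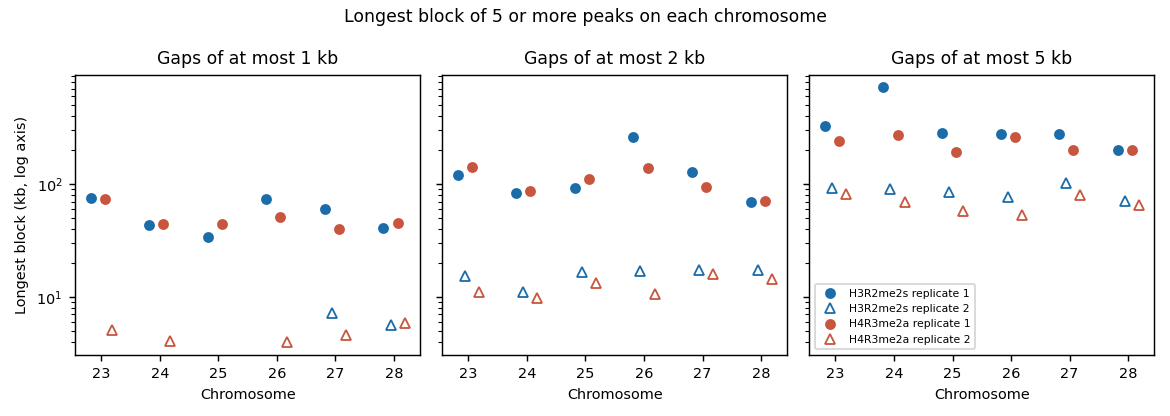
Length of the longest block of 5 or more peaks on each chromosome (y axis, kb, log scale), with 1 panel for each of the gaps of at most 1, 2 and 5 kb; filled circles are replicate 1 and open triangles replicate 2. Replicate 1 blocks are longer than replicate 2 blocks on every chromosome and at each gap, and chromosomes without a triangle had no such block.

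The marks lay largely on the same sites. Of H4R3me2a peaks, 95.1% (Wilson 95% interval 94.6 to 95.6) overlapped an H3R2me2s peak in replicate 1 and 84.7% (83.8 to 85.5) in replicate 2. On chromosomes 1 to 5 the shares were 86.3 and 84.9%, so the higher share on chromosomes 23 to 28 was seen in replicate 1, where cover was also higher. In the other direction, 79.8 and 73.2% of H3R2me2s peaks overlapped an H4R3me2a peak. From an H4R3me2a summit, the median distance to the nearest H3R2me2s summit was 88 bp in replicate 1 and 142 bp in replicate 2. On chromosomes 1 to 5 it was 50 and 109 bp.

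In most bins H3R2me2s covered more bases than H4R3me2a, as elsewhere in the genome. H4R3me2a cover was above H3R2me2s cover in 18 of 116 bins in replicate 1, 15.5%, beside 18.0% of all bins in the genome, and in 0 of 116 in replicate 2, beside 0.750%. The ratio of H4R3me2a to H3R2me2s cover over 113 bins had a median of 0.905 in replicate 1, from 0.384 to 1.13, and of 0.681 in replicate 2, from 0.494 to 0.862. Its ranks in the replicates had a rho of 0.446. The fragment length in the headers was 334 bp for H3R2me2s and 236 bp for H4R3me2a in replicate 2, and 151 and 187 bp in replicate 1. H4R3me2a also had fewer tags in both replicates. The part of fragment length and depth in this ratio was not tested. The bin with the lowest mean rank of this ratio was 24:500001-750000, with H3R2me2s cover of 38.0 and 18.9% and H4R3me2a cover of 22.8 and 9.36%. The bins with the highest mean ranks were 25:500001-750000, 23:5250001-5500000 and 28:3500001-3750000. In the second of these H4R3me2a covered 49.2 and 22.7%, beside 44.9 and 27.8% for H3R2me2s.

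The share of sites common to the replicates of a mark was higher when counted from replicate 2. Of H3R2me2s replicate 1 peaks, 62.7% (61.7 to 63.7) overlapped a replicate 2 peak, and 81.2% of replicate 2 peaks overlapped a replicate 1 peak. For H4R3me2a these shares were 61.6% (60.4 to 62.7) and 76.6%. On chromosomes 11 to 22 the shares were 62.7 and 69.9%, and 64.5 and 64.1%. On chromosomes 1 to 5 the shares lay the other way round, with H3R2me2s at 69.9 and 46.3% and H4R3me2a at 74.5 and 41.1%. Replicate 1 cover was 40.1 and 36.4% here, beside 5.70 and 4.63% on chromosomes 1 to 5, and its part in these shares was not tested. Bases covered in both replicates over bases covered in either were 0.328 (H3R2me2s) and 0.258 (H4R3me2a), beside 0.302 and 0.287 on chromosomes 1 to 5. Among the upper 50% of each list by fold the share of replicate 1 peaks fell to 13.2% for H3R2me2s and 17.5% for H4R3me2a.

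Bases covered in both replicates came to 4.29 Mb (14.8%) in 6391 regions for H3R2me2s and 2.96 Mb (10.24%) in 5449 regions for H4R3me2a. Bases covered in all 4 ChIP lists came to 2.24 Mb (7.75%) in 4626 regions, beside 4.70% on chromosomes 11 to 22 and 1.60% on chromosomes 1 to 5. By chromosome this share ran from 6.63% on chromosome 24 to 9.10% on chromosome 25. Chromosome 26, with the highest replicate 1 cover, had 7.93%. The longest chain of such regions was 5.26 kb, at 26:90380-95634, with 5 regions and no input peak.

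The best ranked site of both marks off the input was taken on each chromosome by mean rank of deposited fold over the 4 ChIP lists. It was 25:1126425-1127086 on chromosome 25, where H3R2me2s had folds of 23.8 and 6.75 and H4R3me2a 28.6 and 7.99. Though on no input peak, this site lies in 25:1000001-1250000, the bin of highest input cover on chromosome 25, with 31 input peaks. On chromosome 28 the best ranked site was 28:514110-514871, with 27.6 and 5.58, and 42.6 and 5.64. The others were 26:4875835-4876481 (20.6 and 4.95, 32.2 and 6.13), 23:550635-551315 (19.2 and 5.33, 24.96 and 7.24), 27:3312360-3313110 (13.5 and 7.66, 31.2 and 6.88) and 24:1523827-1524409 (18.2 and 5.47, 21.3 and 6.24). These folds are the authors' and rank peaks within a list only. The bases shared by all 4 lists at these 6 sites spanned 583 to 762 bp, while the single peaks there were 662 to 2150 bp wide.

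Few ChIP peaks lay on input peaks over the 6 chromosomes as a whole, and more did so where input peaks were grouped. Of H3R2me2s peaks, 3.47 and 5.43% overlapped an input peak, and of H4R3me2a peaks 4.59 and 5.87%. On chromosomes 1 to 5 these shares were 4.70 and 7.04%, and 6.46 and 7.62%. By chromosome they were lowest on chromosome 24, from 1.30 to 2.12% over the 4 lists, and highest on chromosome 25, from 10.5 to 14.05%. Seen from the input, 69.6 and 91.96% of its 510 peaks overlapped an H3R2me2s peak and 76.9 and 90.8% an H4R3me2a peak. Over all chromosomes these shares were 49.3 and 89.3%, and 52.3 and 87.6%, so in replicate 2 they were near those of the genome.

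The largest group of input peaks was in the first Mb of chromosome 27. It held 108 of the 179 input peaks of that chromosome, 60.3%. There 21.9 and 28.1% of H3R2me2s peaks and 27.3 and 29.7% of H4R3me2a peaks overlapped an input peak, against 4.56 and 6.50%, and 6.35 and 7.10%, on the rest of chromosome 27. Replicate 1 cover was lower there than on the rest, 22.1 against 39.3% for H3R2me2s and 19.95 against 36.4% for H4R3me2a. Replicate 2 cover was higher, 22.3 against 21.3% and 17.6 against 14.5%. Smaller groups lay in 25:1000001-1250000, with 31 of 81 input peaks, and in 28:1-250000, with 25 of 93. Overlap with input was about as high there. In the bin on chromosome 25 it was 22.8 and 27.5% of H3R2me2s peaks and 26.5 and 27.8% of H4R3me2a peaks, and in the bin on chromosome 28 it was 21.9 and 17.5%, and 25 and 24.5%. The part of what gives input peaks in the ChIP values of these bins was not tested.

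The peaks with the highest fold in both replicate 1 lists also lay on input. On chromosome 26:3999-5504, near the first end, H4R3me2a replicate 1 had a fold of 125.8, the highest of that list on any chromosome, and H3R2me2s replicate 1 had 73.3 at 26:3951-5506. Input peaks covered 36.6 and 35.4% of these. On chromosome 23 the first block of input peaks, 23:627-4354, lay wholly within a single peak of each ChIP list.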

How the data were processed

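Each of the 5 libraries has its own peak list from the authors, and none was pooled. Per the file headers, MACS 1.4.2 made the replicate 1 lists with a p cutoff of 1e-05 and a control of 23.3 M tags. Also per the headers, MACS 2.0.10.20120913 made the lists of replicate 2 and the input, using a q cutoff of 0.05 and no control, so that local background came from the same library over 10 kb. In all lists 1 tag was kept per position. The SOLiD headers have gal3 in their folder names; an aligner, and a build for the Illumina lists, is not given in the sources used here. The authors deposited for each peak the count of tags (replicate 1), the pileup signal at the summit (replicate 2 and input), the fold enrichment (a ratio), −log10 p-values and q-values, a score of 10 times the −log10 p, and the false discovery rate in percent. The p, q, score and false discovery values were not used.

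Peaks were chosen by chromosome name, and cover, bins, ends, blocks and overlaps of at least 1 bp were computed per list with Python 3.11.15, numpy 2.4.6, pandas 2.3.3 and scipy 1.17.1, and figures with matplotlib 3.10.9. The interval functions were tested on simulated data. Wilson intervals cover counting error only and treat neighbouring peaks as independent, which they are not. Regions are named by rule: on each chromosome the first and last end, the bins of highest and lowest mean rank, the bin of highest input cover, the longest block of each library, the longest stretch without a ChIP peak and the best ranked site of all 4 ChIP lists off the input, besides the longest chain of such sites; other bins and peaks named as highest, lowest or widest were chosen after their values were seen. Libraries were compared by exact permutation, and replicate numbers, which mark the platform, were used as a block only as an alternative. The chromosomes, rules and lists were chosen with earlier results of these data known.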

Additional observations from a re-analysis of the deposited data

Results flagged for a closer look

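In 2 measures the replicates went opposite ways in both marks, in the second with the long stretches without peaks counted. The median deposited fold enrichment on chromosomes 23 to 28 over that on chromosomes 1 to 5 was 1.26 on average in the replicate 1 lists and 0.717 in the replicate 2 lists, a difference of -0.543. The cover of the ends over that of the interior was 0.830 on average in the replicate 1 lists and 1.05 in the replicate 2 lists, a difference of 0.219. The long stretches without peaks, mostly in the interior, were not left out of this ratio, and it was not computed without them. In replicate 2 the ends had 20.4% (H3R2me2s) and 14.5% (H4R3me2a) cover, beside 21.1 and 14.4% over the whole length without these stretches. For each measure, the exact 2-sided permutation p over 2 lists against 2 was 0.3333, the smallest possible, so the design cannot show the difference. Replicate number goes with platform, caller, control and depth, and these cannot be told apart.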

How the results depend on the processing

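Of 72 alternative values, 52 stayed with the main value by the rule for their result and 20 moved. After seeing the data, 4 of the 72 were chosen. Means over 2 libraries had to move by less than their SD, and counts by at most 1.5 times. Overlaps between replicates had to stay within the Wilson interval, and differences between the marks had only to keep their sign. Leaving out 1 replicate always moves a mean over 2 by less than their SD. Those values were thus bound to count among the 52 and show no stability. For other means too the SD holds the gap between the replicates, so large changes could count as staying. The H3R2me2s density ratio with the upper 50% by fold stayed at 3.69, though its libraries had 6.55 and 0.835. The share of H3R2me2s peaks in blocks, 20.6% (SD 28.7), stayed at 39.95% with gaps of at most 2 kb. The count of 52 is therefore not a measure of stability. The replicate block left the difference between the marks at 0.307 (exact permutation p = 0.5, the smallest for 2 pairs); replicate numbers mark the platform. Measured in bases covered, the H3R2me2s density ratio was 4.87. With the upper 50% of each list by fold, replicate overlap was 13.2% (H3R2me2s) and 17.5% (H4R3me2a), H4R3me2a input overlap 4.28% and mark overlap 76.7%. By the same setting the end ratio was 1.26 (H3R2me2s) and 1.22 (H4R3me2a), and rich bins numbered 28 of 116, beside 8.92% of all bins. Replicate overlap was 59.1 and 59.2% when at least 50% of the shorter peak had to overlap, and 81.2 and 76.6% as a share of replicate 2 peaks. Mark overlap as a share of H3R2me2s peaks was 76.5%. Blocks with gaps of up to 5 kb, chosen after seeing the data, held 84.5 and 75.5% of peaks on average over the replicates. Rich bins were 240 of 290 at 100 kb, beside 19.4% of all bins, and 55 of 58 at 500 kb, beside 20.7%. With the upper 10% of bins they were 55 of 116, beside 6.24%. Poor bins were 12 of 290 at 100 kb, beside 14.5% of all bins, and 0 of 58 at 500 kb, beside 16.8%. The end ratios averaged over the replicates, 0.923 and 0.957 with all peaks, turned from below to above 1 with the upper 50% and without replicate 1. That of H4R3me2a also did so with ends of 500 kb (1.04). No single library turned: with the upper 50%, replicate 1 had 0.813 (H3R2me2s) and 0.816 (H4R3me2a), and replicate 2 had 1.70 and 1.63. The causes were not tested.

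Leaving out each replicate in turn gave density ratios from 2.49 to 4.46 (H3R2me2s) and from 2.52 to 5.04 (H4R3me2a), with differences between the marks from 0.0287 to 0.585. Input overlap ranged from 3.47 to 5.43% and from 4.59 to 5.87%, mark overlap from 84.7 to 95.1%, end ratios from 0.822 to 1.02 and from 0.839 to 1.07, block shares from 0.361 to 40.9% and from 0.778 to 33.3%. Rich bins numbered 109 of 116 either way, against 106 with all lists. Over all chromosomes 23.5% of bins were rich without replicate 1 and 23.7% without replicate 2. Poor bins numbered 4 without replicate 1 and 3 without replicate 2, beside 22.7 and 21.1% of all bins. With 1 library left per mark these are values without a test. Depth of the ChIP lists ranged from 10.3 to 35.1 M tags and went with platform, so a site missing from a list is not shown to be absent.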
